A study of Mus musculus with 8 samples.

Results

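CC chemokines are small secreted proteins that draw leukocytes out of the blood, and macrophages stimulated through Toll-like receptors are a major source of them. The transcripts of 10 CC chemokine genes were compared between macrophages with and without activity of an Il19 reporter: Ccl2, Ccl3, Ccl4, Ccl5, Ccl6, Ccl7, Ccl8, Ccl9, Ccl12 and Ccl24. They were chosen by gene symbol as CC chemokines of macrophages, with earlier results of these data known. All 10 were found among the 17823 genes of the deposited count table, and all 10 passed the filter on low counts that 12610 genes passed. The tdT-positive group holds 4 libraries of Il19-tdT positive cells and the tdT-negative group 4 libraries of Il19-tdT negative cells, numbered 1 to 4 in each group and called biological replicates in the labels. All were macrophages derived from C57BL/6 bone marrow over 7 days in recombinant M-CSF, a growth factor that turns marrow precursors into macrophages, and all received lipopolysaccharide (LPS) of Escherichia coli O111:B4 at 1 µg/ml, so no unstimulated cells are part of the comparison. The labels used here do not say how the reporter was built, how the cells were separated or how long LPS acted.

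Chemokines act by binding receptors coupled to inhibitory G proteins on the cells they attract. Ccl2, Ccl7 and Ccl12 bind Ccr2, the receptor that inflammatory monocytes use to leave the bone marrow and enter tissue. Ccl3, Ccl5, Ccl6 and Ccl9 act on Ccr1, a receptor of monocytes, macrophages and activated lymphocytes, and Ccl4 attracts much the same cells. Mouse Ccl8 signals through Ccr8, and Ccl24 through Ccr3, the receptor of eosinophils. In macrophages, LPS induces Ccl2, Ccl3, Ccl4 and Ccl5 through NF-kB and interferon signalling, whereas Ccl24 is known as a gene of macrophages treated with interleukin-4.

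Of the 10 genes, 9 lie in 2 runs on chromosome 11. In RefSeq on GRCm38, the sequence of the mm10 build that the submitters' processing notes name, Ccl2 (82035577 to 82037452), Ccl7 (82045712 to 82047525), Ccl12 (82101845 to 82103399) and Ccl8 (82115185 to 82116799) follow each other on the plus strand. Ccl5 (83525778 to 83530518), Ccl9 (83572917 to 83578636), Ccl6 (83587886 to 83593087) and Ccl3 (83647843 to 83649378) follow on the minus strand, and Ccl4 on the plus strand ends at 83664683. Ccl24 lies apart, on the minus strand of chromosome 5 (135569935 to 135573123). RefSeq starts Ccl4 at 83648624, inside the span of Ccl3, whereas GENCODE starts it at 83662584, and in GENCODE Ccl2 and Ccl6 each overlap 1 gene on the opposite strand. Whether the counting used strand is not stated in these sources, and counts of these 4 genes may include reads of the overlapping gene. No stretch of 50 bases was shared with the transcript of another gene in GENCODE for 9 of the members. For Ccl9 this held for all but 59 of 2996 stretches, and those 59 were found in transcripts of 463 other genes. Only exact matches to annotated transcripts were sought, so copies with scattered mismatches or without annotation were not assessed.

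RefSeq promoter sequences on GRCm38 were at hand for 5 members. Those of Ccl9 and Ccl6 are shown because these adjacent genes differed in how steadily they changed, and those of Ccl12 and Ccl8 because these neighbours varied most between replicate numbers among the genes on chromosome 11. Each run gives the 250 bases before the gene's start, 5′ to 3′ on the strand of the gene, with matches to the motifs named after it in capitals.
Ccl9, chr11:83578637-83578886, minus strand: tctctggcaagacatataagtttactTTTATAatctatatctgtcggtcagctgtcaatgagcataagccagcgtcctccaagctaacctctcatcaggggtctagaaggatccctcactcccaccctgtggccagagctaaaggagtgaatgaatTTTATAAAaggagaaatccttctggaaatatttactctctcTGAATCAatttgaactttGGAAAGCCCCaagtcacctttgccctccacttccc
Ccl6, chr11:83593088-83593337, minus strand: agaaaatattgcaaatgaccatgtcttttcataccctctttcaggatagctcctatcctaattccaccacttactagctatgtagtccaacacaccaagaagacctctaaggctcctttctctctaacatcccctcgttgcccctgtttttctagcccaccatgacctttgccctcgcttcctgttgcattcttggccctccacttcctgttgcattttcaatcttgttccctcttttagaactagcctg
Ccl12, chr11:82101595-82101844, plus strand: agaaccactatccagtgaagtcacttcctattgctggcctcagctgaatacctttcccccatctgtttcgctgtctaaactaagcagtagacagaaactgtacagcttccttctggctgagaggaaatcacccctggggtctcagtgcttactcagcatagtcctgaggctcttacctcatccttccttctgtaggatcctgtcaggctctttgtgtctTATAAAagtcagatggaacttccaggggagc
Ccl8, chr11:82114935-82115184, plus strand: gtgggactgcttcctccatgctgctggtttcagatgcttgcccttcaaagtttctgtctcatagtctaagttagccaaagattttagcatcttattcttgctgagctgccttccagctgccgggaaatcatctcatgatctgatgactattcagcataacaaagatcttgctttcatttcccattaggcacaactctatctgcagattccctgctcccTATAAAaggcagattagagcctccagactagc

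The motifs, searched on both strands, were a kappaB motif of NF-kB, an interferon response core, an AP-1 motif (TGANTCA), a C/EBP motif (TTGCNNAA) and the TATA box (TATAAA). Over the same 250 bases of all 32851 promoters in the table, these were found in 1.41%, 2.98%, 6.75%, 9.56% and 12.4%. The Ccl9 window held a kappaB match from -35 to -26, an AP-1 match from -53 to -47 and 3 TATA matches, a pair of which overlap on opposite strands, where positions count back from the gene's start. Ccl12 and Ccl8 each held a TATA match and no other, starting at -31 and -32, whereas the Ccl6 and Ccl3 windows held none of the 5 motifs. The longest run of bases that Ccl6 and Ccl9 shared was gccctccacttcc, and that of Ccl12 and Ccl8 was 8 bases long. A match is a string of letters and does not show that a factor bound there.

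Library depth ran from 49850537 to 58516454 counts, and a count of 3 corresponds to 0.0490 to 0.0696 CPM (counts scaled to 1e+06 per library). The macrophage genes Adgre1, Csf1r, Cd68, Cd14, Itgam, Mertk and Fcgr1 summed to 9197 to 12251 CPM with the reporter signal (tdT-positive) and 8368 to 12942 CPM without it (tdT-negative). tdT-positive replicate 3 held 12.3% of its counts in the ribosomal transcript Rn45s, against 0.302% to 0.734% in the other libraries. tdT-negative libraries had more RNA of stromal markers (62.6 to 155 CPM summed over 11 genes in tdT-positive, 261 to 2366 CPM in tdT-negative libraries) and of neutrophil markers (3.47 to 7.78 and 14.95 to 276 CPM over 10 genes). tdT-negative replicate 4 stood apart with 2366 CPM of the stromal and 1523 CPM of the 8 osteoclast markers, against at most 586 and 195 CPM in the other tdT-negative libraries. With the replicate number in the model, 9 of 10 stromal, 4 of 6 neutrophil, 4 of 7 monocyte and 4 of 8 osteoclast markers tested fell, and none rose. Of all genes tested, 15.8% passed in that model. Of the 7 macrophage markers, Mertk rose (log2 fold change 0.73, SE 0.11), none fell and 6 did not pass. With the group only, 0 stromal, 0 neutrophil, 1 monocyte, 0 osteoclast and 0 macrophage markers passed. With the number, 1 stromal marker passed without number 3, 0 neutrophil and 0 macrophage markers without number 2, and 0 osteoclast markers without number 2 or number 3. For bulk RNA, fewer cells of a type and less RNA per cell cannot be told apart.

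None of the 10 chemokines passed the test for a change between tdT-positive and tdT-negative macrophages. With the group as the only term, 0 of 10 passed an adjusted p under 0.05 (edgeR quasi-likelihood test, Benjamini-Hochberg adjustment over 12610 genes), where 0.0238% of all genes passed, and none had an unadjusted p under 0.05. With the replicate number as a further term, since libraries of the same number varied together, 0 of 10 passed where 15.8% of all genes did, and 1, Ccl9, had an unadjusted p under 0.05, against 32.7% of all genes. The DESeq2 and limma voom tests called none of the 10 without the number and called Ccl9 with it. The ranges of the groups overlapped for all 10, and 11.4% of all genes tested had groups that did not overlap. With only 10 members, 0 is near that share. The median log2 fold change of the 10, tdT positive over tdT negative, was 0.08 without and 0.04 with the replicate number, beside -0.00024 and 0.01 over all genes tested.

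**Figure D1:**
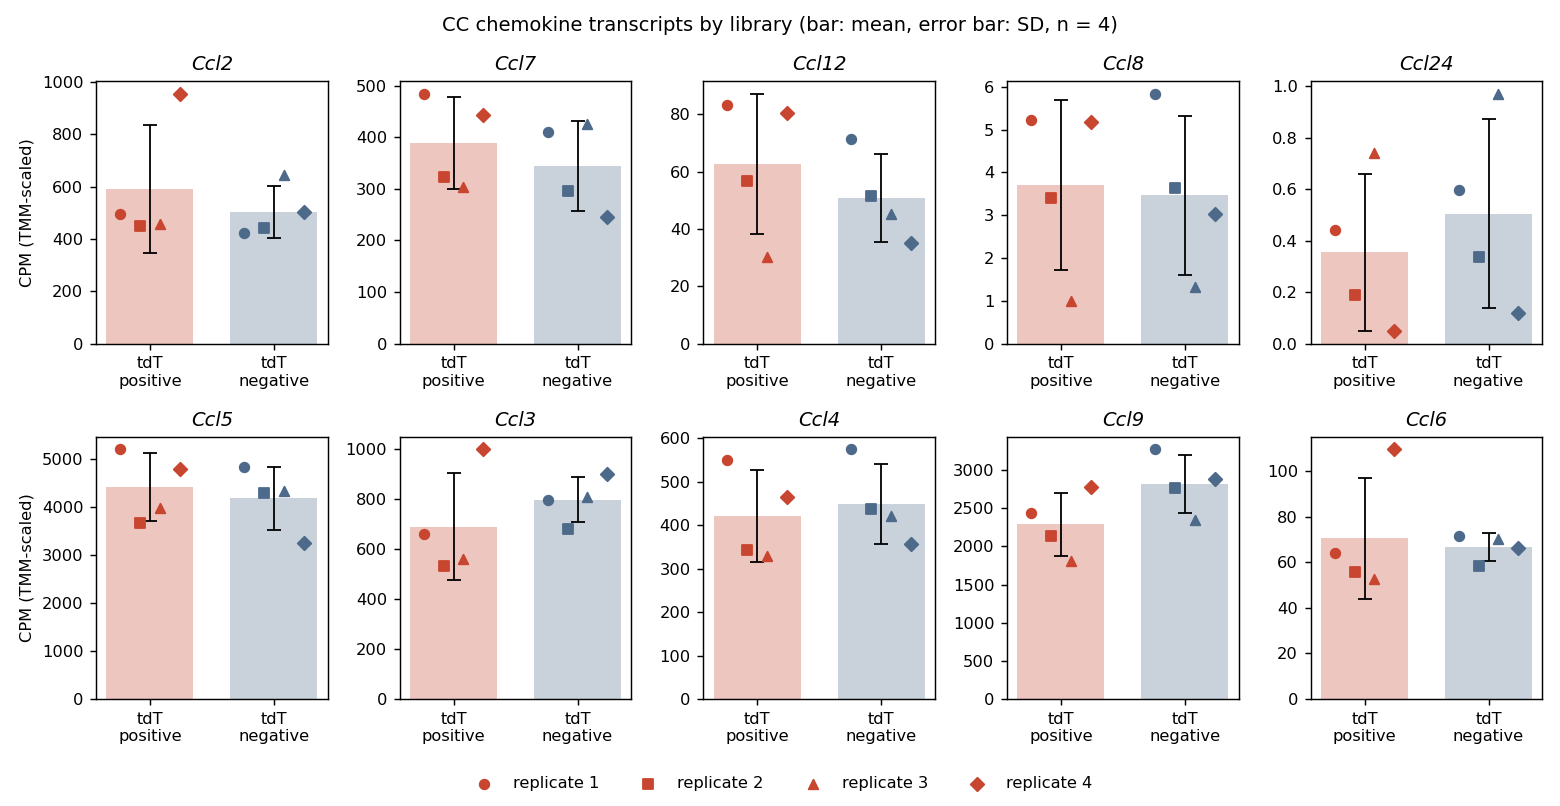
TMM-scaled CPM of the 10 CC chemokines by library, with bars for the mean, error bars for the SD (n = 4 per group) and a marker shape for each replicate number. The points of tdT-positive and tdT-negative libraries overlap for every gene, and tdT-positive replicate 4 (diamond) is the highest of its group for Ccl2, Ccl3, Ccl6 and Ccl9.

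Per length of transcript, the members span a range from the most abundant mRNAs of these cells to the edge of detection. Ccl5 averaged 17013 ± 2882 TPM (counts per base of gene length, scaled to 1e+06 per library) in tdT-positive and 16267 ± 1756 TPM in tdT-negative libraries (SD, n = 4), was the highest member in 8 of 8 libraries and ranked 4 among all genes of the table. Ccl3 (1799 ± 623 and 2127 ± 489 TPM), Ccl9 (1571 ± 351 and 1975 ± 437 TPM), Ccl2 (1513 ± 686 and 1297 ± 233 TPM), Ccl4 (1314 ± 341 and 1411 ± 263 TPM) and Ccl7 (1000.1 ± 246 and 882 ± 135 TPM) followed in that order of their means over all 8 libraries. The ranges of neighbours in that order overlapped, so their order is within the spread of the libraries. Ccl12 came next with 243 ± 99.8 and 196 ± 54.3 TPM, then Ccl6 with 102 ± 42.1 and 96.9 ± 14.1 TPM. Ccl8 had 15.1 ± 8.26 and 14.4 ± 7.61 TPM, and Ccl24 0.541 ± 0.432 and 0.763 ± 0.483 TPM. Of the counts of a library, the 10 genes took 0.650% to 1.11% in tdT-positive and 0.895% to 1.01% in tdT-negative libraries.

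No ligand of Ccr2 passed, and the intervals of their fold changes span 1. Across tdT-positive replicates 1 to 4, Ccl2, the main attractant of Ccr2-bearing monocytes, stood at 495, 450.3, 456 and 955 CPM (with TMM factors, which scale by a trimmed mean of log ratios), and across tdT-negative replicates 1 to 4 at 424, 440.5, 644 and 504 CPM. The tdT-positive libraries lay close together except for replicate 4, which was the highest of all 8. The log2 fold change was 0.23 (SE 0.27, 95% interval -0.38 to 0.83, edgeR adjusted p = 0.748), which spans from 0.770 to 1.78 times the tdT-negative level, and it was -0.11 without tdT-positive replicate 4.

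Ccl7, which attracts monocytes through the same receptor, stood at 485, 324, 303 and 442 CPM across tdT-positive replicates 1 to 4 and at 409, 296, 426 and 246 CPM across the tdT-negative ones (log2 fold change 0.17, SE 0.22, 95% interval -0.33 to 0.68, edgeR adjusted p = 0.774). Both groups held high and low libraries, and tdT-negative replicate 4 was the lowest. Ccl12, a mouse chemokine close to Ccl2, stood at 83.2, 56.8, 30.4 and 80.4 CPM across tdT-positive replicates 1 to 4 and at 71.4, 51.5, 45.1 and 35.0 CPM across the tdT-negative ones. tdT-positive libraries were thus both the highest and the lowest for Ccl12, and its log2 fold change was 0.31 (SE 0.32, 95% interval -0.42 to 1.03, edgeR adjusted p = 0.716). Each of these 3 genes was higher in tdT-positive libraries in numbers 1, 2 and 4 and lower in number 3. Ccl8, a chemokine of monocytes and T cells, ranged from 0.997 to 5.22 CPM in tdT-positive libraries, against 1.33 to 5.84 CPM in tdT-negative ones, and it had its lowest value of each group in replicate 3.

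Among Ccl4 and the ligands of Ccr1 none passed either, and Ccl9 came closest. Ccl5, which draws T cells and monocytes, stood at 5199, 3672, 3974 and 4776 CPM across tdT-positive replicates 1 to 4 and at 4831, 4282, 4330 and 3251 CPM across the tdT-negative ones. Replicate 1 was the highest of each group, and the groups overlapped. Its spread was the smallest of the 10, with the highest library 1.60 times the lowest, and its log2 fold change was 0.08 (SE 0.18, 95% interval -0.34 to 0.49, edgeR adjusted p = 0.888). Ccl4, a close relative of Ccl3, ranged from 330 to 551 CPM in tdT-positive libraries, against 357 to 575 CPM in tdT-negative ones. Ccl6, an abundant chemokine of mouse myeloid cells, ranged from 52.4 to 110 CPM in tdT-positive libraries, against 58.1 to 71.6 CPM in tdT-negative ones. The highest Ccl6 value came again from tdT-positive replicate 4, and the other 3 tdT-positive libraries each had less than the tdT-negative library of their number.

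Ccl3, an attractant of monocytes and T cells, stood at 662, 533, 561 and 999.8 CPM across tdT-positive replicates 1 to 4 and at 797, 681, 809 and 899 CPM across the tdT-negative ones. It was lower in tdT-positive libraries in numbers 1, 2 and 3, at 0.831, 0.783 and 0.693 times the tdT-negative level, and higher in number 4, at 1.11 times. With the replicate number in the model its log2 fold change was -0.25 (SE 0.11, edgeR adjusted p = 0.173). Without number 4 it was -0.37 (edgeR adjusted p = 0.0130), so the call on Ccl3 turned on that number. With the group as the only term it was -0.21, and -0.45 without tdT-positive replicate 4. It was -0.15 without tdT-negative replicate 4, the library rich in stromal and osteoclast transcripts. The part of those transcripts in the difference was not tested.

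Ccl9, a Ccr1 ligand that mouse myeloid cells and osteoclasts make in large amounts, stood at 2443, 2139.6, 1808 and 2771 CPM across tdT-positive replicates 1 to 4 and at 3274, 2767, 2346 and 2878 CPM across the tdT-negative ones. It was lower in the tdT-positive library in 4 of 4 numbers, at 0.746, 0.773, 0.771 and 0.963 times the tdT-negative level, although the groups overlapped. Only Ccl24 shared this sameness of direction among the 10, where 41.5% of all genes tested went 1 way in 4 of 4 numbers and 19.6% were lower in all of them. With the group as the only term the log2 fold change was -0.30 (SE 0.18, 95% interval -0.70 to 0.10, edgeR adjusted p = 0.458), and over the 70 splits of its CPM values the exact permutation p, two-sided, was 0.143. With the replicate number it was -0.31 (SE 0.09, 95% interval -0.52 to -0.10, edgeR adjusted p = 0.0598), just outside the threshold. In that model Ccl9 passed with limma voom (adjusted p = 0.0427), with the DESeq2 Wald test (adjusted p = 0.000561), with DESeq2 size factors (adjusted p = 0.0486), with library totals as the scaling (adjusted p = 0.0257) and without number 4 (adjusted p = 0.0116). It did not pass without number 1, 2 or 3 (adjusted p = 0.224, 0.187 and 0.124).

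**Figure D2:**
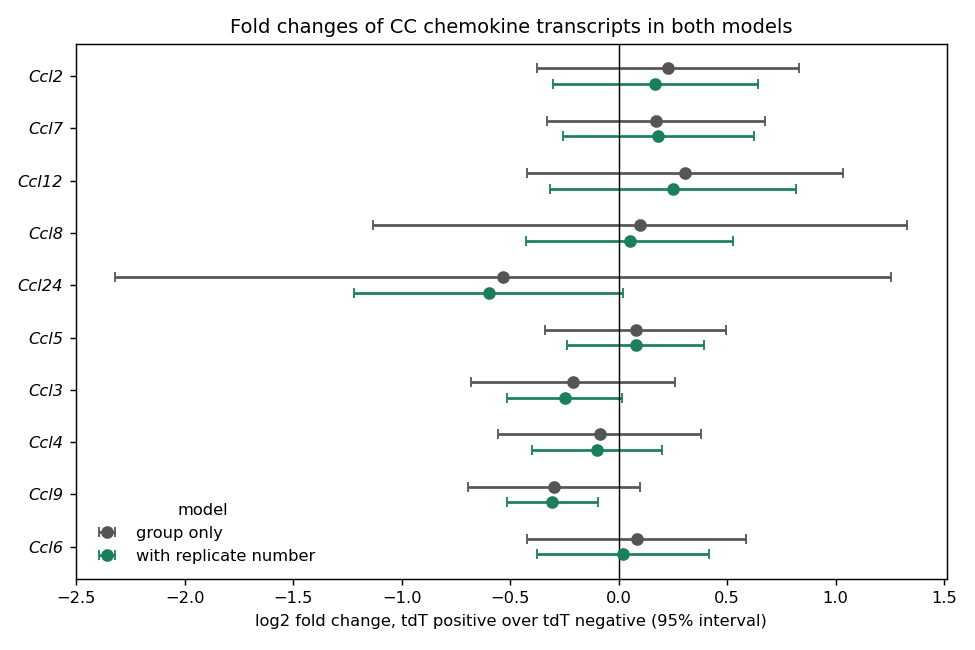
Log2 fold changes, tdT positive over tdT negative, of the 10 CC chemokines with 95% intervals, from the model with the group only (grey) and with the replicate number added (green). All grey intervals span 0, and of the green ones only that of Ccl9 (-0.52 to -0.10) does not.

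Ccl24, an attractant of eosinophils, was near the limit of detection. It had 23, 11, 32 and 3 counts across tdT-positive replicates 1 to 4 and 32, 20, 54 and 7 counts across the tdT-negative ones. Replicates 3 held the most and replicates 4 the fewest in both groups, and its level differed more between numbers than between groups. With the replicate number its log2 fold change was -0.60 (SE 0.26, 95% interval -1.22 to 0.02, edgeR adjusted p = 0.166). Of 8 genes tested that interleukin-4 induces or needs for its signal, Mrc1 (log2 fold change 0.89, SE 0.06, edgeR adjusted p = 0.00302) and the receptor chain gene Il4ra (0.40, SE 0.09, adjusted p = 0.0250) rose with the replicate number in the model, none fell and 6 did not pass, Arg1 among them (1013 ± 17.5 CPM in tdT-positive libraries, against 882 ± 154 CPM in tdT-negative ones). That is 2 of 8 where 15.8% of all genes passed, 1 of 8 passed without number 2 or number 3, and with the group only none did (adjusted p = 0.218 for Mrc1 and 0.647 for Il4ra). Markers of eosinophils and mast cells summed to 0.232 to 0.413 CPM in tdT-positive libraries, against 1.04 to 3.78 CPM in tdT-negative ones, with Epx and Ms4a2 at 0 in all tdT-positive ones. Only 1 of these 6 markers was above the filter, and it passed in neither model (log2 fold change -0.49 with the group only, -0.40 with the number). When number 1 or number 3 was left out of the model with the number, 1 of 2 tested fell.

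In numbers 3 and 4 most members lay on the same side, lower in number 3 and higher in number 4, while numbers 1 and 2 were mixed. In number 3 all 10 were lower in the tdT-positive library, where 50.5% of all genes tested were lower and 49.5% higher. In number 4, 8 of the 10 were higher in the tdT-positive library, where 57% of all genes were, and only Ccl9 and Ccl24 were lower. Ccl2, Ccl7, Ccl12, Ccl8 and Ccl6 were over 1.5-fold higher there, at 1.90, 1.80, 2.30, 1.71 and 1.66 times the tdT-negative level, where 6.56% of all genes were, and Ccl5 was at 1.47 times. In numbers 1 and 2, 4 and 3 members were higher, where 46.7% and 50.2% of all genes were, and none by over 1.5-fold, where 4.66% and 4.17% were. These counts of higher and lower members were the same with DESeq2 size factors and library totals, and with upper-quartile factors in all but number 2, where 2 were higher. Each of these comparisons sets 1 library against 1 and has no replicate check.

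**Figure D3:**
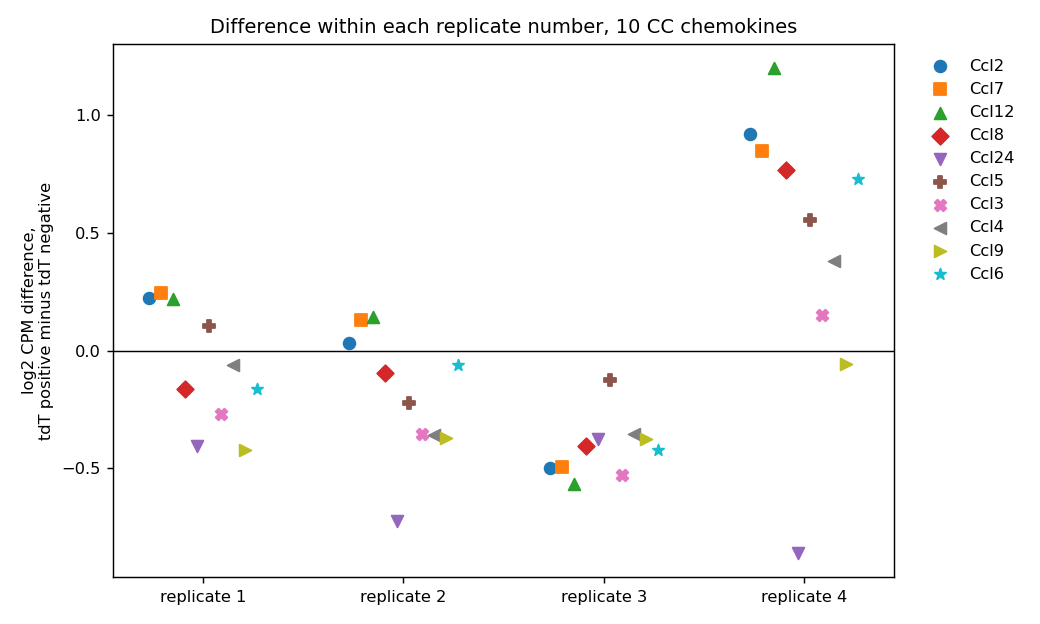
Difference in log2 CPM, tdT-positive minus tdT-negative library of the same replicate number, for each of the 10 CC chemokines. All points lie below 0 in number 3, whereas in number 4 all but Ccl9 and Ccl24 lie above 0.

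Libraries 3 and 4 also differ in other measured features. tdT-positive replicate 3 is the library with 12.3% of counts in Rn45s, and its TMM factor was the lowest (0.865), while that of tdT-negative replicate 4, the library rich in stromal and osteoclast transcripts, was the highest (1.15). Their part in the differences within numbers 3 and 4 was not tested. Over all genes tested, the median log2 difference in number 3 was -0.0050 with TMM scaling and -0.19 with library totals, and in number 4 it was 0.06 and -0.08. The median ratio of the 10 members in number 4 was 1.56 with TMM scaling and 1.42 with library totals, and in number 3 it was 0.747 and 0.657.

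Most ratios between genes of the same run, which need no scaling between libraries, followed the replicate number more than the reporter. The ratio of Ccl2 to Ccl7, per base of gene length, came to 1.01, 1.38, 1.49 and 2.14 across tdT-positive replicates 1 to 4 and to 1.03, 1.48, 1.50 and 2.03 across the tdT-negative ones. Within a number the ratio differed by at most 1.07-fold between the groups, whereas between numbers it spanned 2.05-fold. Ccl2 to Ccl12 behaved likewise, with at most 1.21-fold within and 2.47-fold between numbers, and so did Ccl3 to Ccl4, with at most 1.17-fold within and 1.81-fold between. Ccl5 to Ccl3 differed by at most 1.33-fold within and 1.66-fold between numbers, but was higher in the tdT-positive library of every number. It came to 11.7, 10.2, 10.5 and 7.11 in tdT-positive and 9.02, 9.36, 7.96 and 5.38 in tdT-negative replicates 1 to 4. The ratio of Ccl9 to Ccl6 differed more within than between numbers, at 18.2, 18.3, 16.5 and 12.1 in tdT-positive and 21.8, 22.7, 15.9 and 20.8 in tdT-negative replicates 1 to 4, or up to 1.72-fold within a number and 1.29-fold between numbers.

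**Figure D4:**
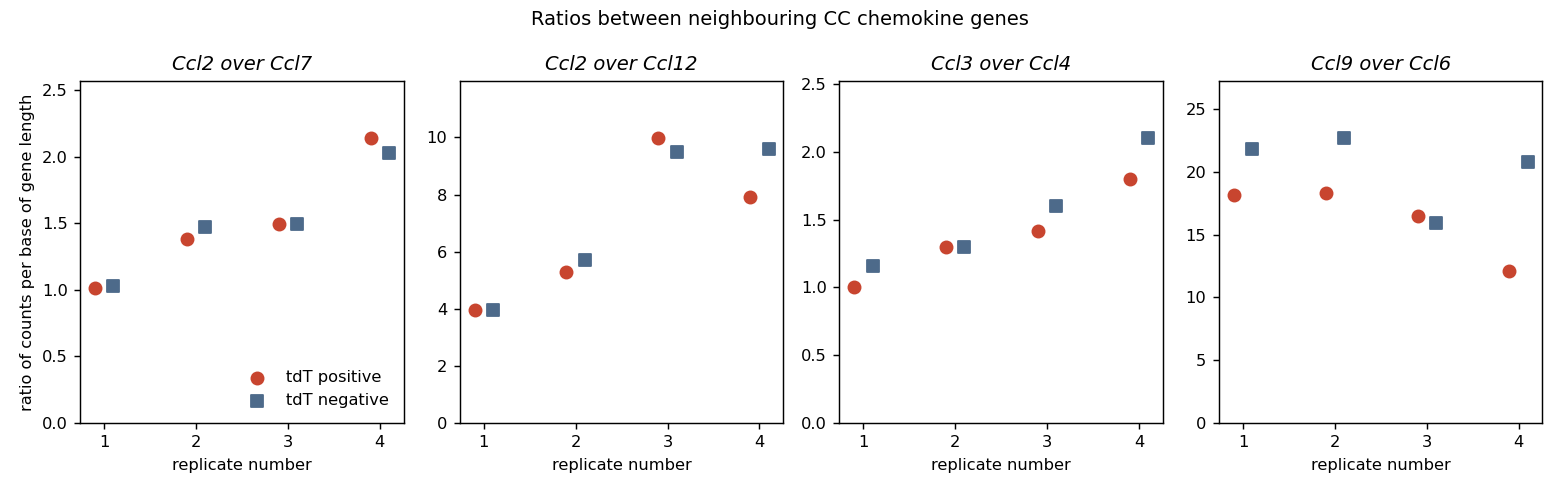
Ratios of counts per base of gene length between pairs of CC chemokine genes, by replicate number, in tdT-positive (circles) and tdT-negative (squares) libraries. For Ccl2 over Ccl7, circle and square nearly coincide in each number while the numbers range from 1.01 to 2.14, whereas for Ccl9 over Ccl6 they part most in number 4 (12.1 and 20.8).

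Across the 8 libraries, log2 CPM of Ccl5 and Ccl7 was correlated with a Pearson r of 0.89, of Ccl2 and Ccl6 with 0.87, of Ccl4 and Ccl5 with 0.86, of Ccl3 and Ccl6 with 0.85 and of Ccl8 and Ccl12 with 0.83. Ccl2 and Ccl12, in spite of their shared run on chromosome 11, had an r of 0.30. After the mean of each number was taken out, the r of Ccl2 with Ccl7 and with Ccl12 was 0.99, that of Ccl9 with Ccl2 was 0.04 and that of Ccl9 with Ccl3 was 0.91. The difference between groups was left in, so each r after this step also depends on the mean differences. These were -0.31 for Ccl9, 0.17 for Ccl2 and -0.25 for Ccl3 in log2 CPM, tdT positive minus tdT negative. The 0.04 thus does not show that the differences of Ccl9 and Ccl2 varied apart, and both were highest in number 4. These r values describe 8 libraries that share a number in pairs, with only 4 free differences after the means of the numbers are removed. Among 9193 candidate genes, those whose log2 CPM averaged 2 or more, the closest in pattern over the 8 libraries were Dnaja2 and Igbp1 for Ccl9 (r = 0.98 and 0.96), Caml and Akr1a1 for Ccl2 (0.97 and 0.97) and Ap3s1 and Cutc for Ccl5 (0.97 and 0.96). They were Psmd8 and Clec4e for Ccl3 (0.98 and 0.96), Rtca and Pcna for Ccl4 (0.96 and 0.96), Zcchc9 and Ahsa2 for Ccl6 (0.93 and 0.92) and Ctsh and Ankra2 for Ccl7 (0.97 and 0.97). For Ccl8 they were Zfat and Atf3 (0.99 and 0.98), for Ccl12 Ddx5 and Cnep1r1 (0.98 and 0.96), and for Ccl24 Nmral1 and Hdc (0.99 and 0.98). Picking the highest of 9193 r values over 8 libraries favours high values, and those for Ccl24 rest on 3 to 54 counts a library.

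Ccr1, Ccr2 and Ccr3, receptors of these chemokines, did not pass. Ccr1, the receptor of Ccl6 and Ccl9, averaged 172 ± 103 CPM in tdT-positive libraries, against 185 ± 104 CPM in tdT-negative ones (SD, n = 4, log2 fold change -0.12 with the replicate number, 95% interval -0.33 to 0.09, edgeR adjusted p = 0.395, and -0.10 without it, 95% interval -1.11 to 0.91, adjusted p = 0.944), with replicate 3 the highest of each group at 326 and 340 CPM. Ccr3, the receptor of Ccl24, averaged 40.8 ± 7.36 CPM in tdT-positive libraries, against 48.2 ± 7.85 CPM in tdT-negative ones. Ccr2, the receptor of Ccl2, Ccl7 and Ccl12, was low, at 6.31, 5.76, 4.48 and 5.26 CPM across tdT-positive replicates 1 to 4 and 12.7, 13.7, 5.51 and 5.34 CPM across the tdT-negative ones. It was lower in 4 of 4 numbers, by most in numbers 1 and 2, and did not pass with the replicate number (log2 fold change -0.66, SE 0.21, edgeR adjusted p = 0.0724).

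Of 7 CC chemokine receptor genes compared, 2 fell with the replicate number in the model, none rose and 5 did not pass, where 15.8% of all genes passed. The 2 are Ccr7 (0.645 ± 0.487 CPM in tdT-positive libraries, against 2.15 ± 1.15 CPM in tdT-negative ones, adjusted p = 0.0390 by edgeR), which guides dendritic cells to lymph nodes, and Ccrl2 (51.8 ± 21.9 and 62.7 ± 20.0 CPM, adjusted p = 0.0437), a receptor-like protein that presents the chemoattractant chemerin. With the group as the only term neither passed, and no receptor passed with the number when number 2 or number 3 was left out. Ccr6 had 1 count, in tdT-negative replicate 1, and Ccr10 had 2 and 3 counts, in tdT-negative replicates 1 and 2. Ccr4 had 1 and 4 counts, in tdT-positive replicates 3 and 4, and none in the tdT-negative libraries. These 3 genes were too near 0 to compare. The median log2 fold change of the 7 was -0.24 with the number, beside 0.01 over all genes tested.

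Ccl22 and Ccl17, chemokines of dendritic cells that attract T cells through Ccr4, fell with the replicate number in the model. Ccl22 stood at 1.19, 1.91, 0.696 and 2.53 CPM across tdT-positive replicates 1 to 4 and at 12.99, 22.5, 2.85 and 14.1 CPM across the tdT-negative ones (log2 fold change -2.95, SE 0.26, edgeR adjusted p = 0.00455 with the replicate number and 0.0590 without), and Ccl17 fell by 2.56 (SE 0.60, edgeR adjusted p = 0.0320 with the number and 0.0694 without), both without overlap of the groups. These and Ccl25 (log2 fold change -0.06, SE 0.15), a chemokine of thymus and gut, were the 3 other CC chemokines tested of 6 in the table. Thus 2 fell, none rose and 1 did not pass, where 15.8% of all genes passed. Of 7 dendritic cell markers, Fscn1 was the only one above the filter and fell (log2 fold change -1.94, SE 0.20, edgeR adjusted p = 0.00648 with the number and 0.0562 without). Clec9a, a marker below the filter, was higher, with 12, 7, 4 and 18 counts across tdT-positive replicates 1 to 4 and 3, 4, 2 and 2 counts across the tdT-negative ones, and the other 5 each averaged under 0.2 CPM in both groups. The part of dendritic cell RNA in the falls of Ccl22 and Ccl17 was not tested.

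**Figure D5:**
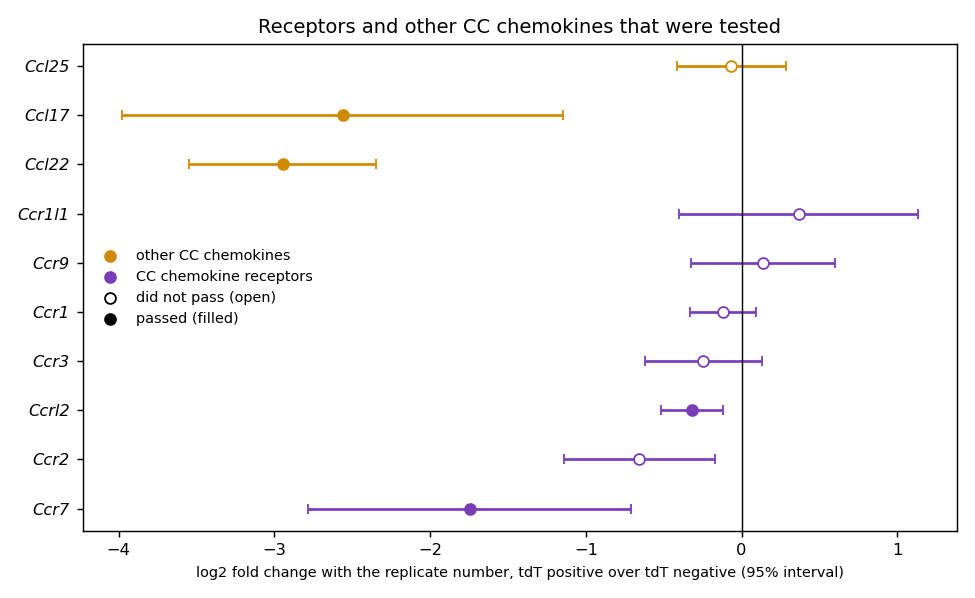
Log2 fold changes, tdT positive over tdT negative, with 95% intervals from the model with the replicate number, for CC chemokine receptors (purple) and other CC chemokines (orange). Filled points passed an adjusted p under 0.05: Ccl22, Ccl17, Ccr7 and Ccrl2, all lower in tdT-positive libraries, while Ccr1 lies near 0.

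Calls among genes that share inducers or effectors with the chemokines were also made with the replicate number in the model, where 15.8% of all genes passed, and none was made without it. Of 10 interferon targets none passed with the number, and the median log2 fold change was 0.0049. Cxcl10 had the smallest p of these with the number (log2 fold change -0.21, SE 0.09, edgeR adjusted p = 0.158). It stood at 491 ± 327 CPM in tdT-positive libraries, against 540 ± 292 CPM in tdT-negative ones. Of 10 early LPS targets none passed either (median 0.0067), with Tnf at 203 ± 42.7 and 233 ± 41.8 CPM (log2 fold change -0.21, SE 0.06, edgeR adjusted p = 0.0581). Of 13 genes of receptor signalling, Gng2, a G protein subunit gene, rose (log2 fold change 0.31, SE 0.08, edgeR adjusted p = 0.0391). Rgs2 and Rgs1, whose products shut off G proteins, fell by 0.57 (SE 0.10, adjusted p = 0.0149) and by 0.49 (SE 0.12, adjusted p = 0.0334), and 10 did not pass. None of these 13 passed when number 1, 2 or 3 was left out. Of 6 genes for proteins that trim or bind chemokines, Mmp12, the macrophage elastase gene, rose (log2 fold change 0.62, SE 0.11, edgeR adjusted p = 0.0137), Mmp2, a stromal gelatinase gene, fell (-2.30, SE 0.47, adjusted p = 0.0208) and 4 did not pass, and none of the 6 passed without number 2. Markers of T and NK cells, which also make Ccl5, summed to 0.0232 to 0.0860 CPM in tdT-positive libraries, against 0.0169 to 0.108 CPM in tdT-negative ones, with Cd3e and Nkg7 at 0 in the tdT-positive ones. Those of platelets and megakaryocytes, whose granules hold Ccl5, summed to 205 to 664 and 149 to 850 CPM, nearly all from Pf4 (398 ± 214 and 386 ± 316 CPM). The sums thus follow Pf4 and say little of the other markers on that list. With the replicate number 1 of the 4 tested fell and 3 did not pass, and 0 passed without number 2 or number 3.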

How the data were processed

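Per the labels' protocols, 8 stranded libraries of polyadenylated RNA were prepared from total RNA. In the table the authors deposited, each gene has a raw count per library and a length. STAR and mm10 are named in the submitters' processing notes. For STAR's version, the counter, its annotation and its use of strand, these sources give nothing. Columns were matched by the identifiers in the sample descriptions, and groups were taken from the titles.

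The 10 members, the other gene lists and the tests were chosen with earlier results of these data known. Genes were filtered with edgeR 4.0.16 defaults (minimum count 10, minimum total 15), scaled by TMM and tested with its quasi-likelihood test, adjusted over 12610 genes, with the group as the only term. All intervals on fold changes come from these fits, and SE is the fold change divided by the square root of F. Same-numbered libraries deviated together from their group means (r = 0.63, 0.28, 0.62 and 0.56 for numbers 1 to 4, all above 0.1), and results of the model blocked on the number are given where they change a call or a count. The labels call the numbers biological replicates without saying which share a mouse or culture, and p-values reflect the spread of these libraries alone. Counts of libraries within a group differed by 54.0 to 759 chi-square per degree of freedom (genes with at least 20 counts), so none is a repeat of another. TPM was computed from counts and the deposited lengths, with no correction for fragment size. Alternatives used DESeq2 1.42.0, limma 3.58.1, other scalings, other filters and left-out libraries. The scripts were checked on simulated counts.

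Named genes are all members, up to 4 genes of each list with the smallest p with the replicate number, the most abundant marker of some lists and the 2 genes most like each member in pattern. Others named include Ccr1, the macrophage markers and genes with few or no counts. Promoters are from RefSeq (GRCm38.p6). 1 receptor gene is not reported here.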

Additional observations from a re-analysis of the deposited data

Results flagged for a closer look

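The 10 members give 20 sets of 4 libraries, and in 1 of them a library lay far from the others. Ccl2 was at 955 CPM in tdT-positive replicate 4, while the other tdT-positive libraries lay between 450.3 and 495 CPM. Chance flags about 1 in 20 such groups. Without this library the log2 fold change of Ccl2 was -0.11 in place of 0.23, and neither passed (edgeR, adjusted p = 0.827 and 0.748).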

How the results depend on the processing

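Whether any member passed depended on the replicate number being in the model: without it the number of members that passed was 0 under every scaling, filter, test, threshold and left-out library tried. With the replicate number as a block it was 0, and it was 1 (Ccl9, lower) with library totals, DESeq2 size factors, the DESeq2 Wald test, limma voom or a threshold of 0.1, and between 0 and 2 (Ccl9 and Ccl3 without number 4) when both libraries of a number were left out. Over all genes, 3 passed with the group only, 921 with the DESeq2 Wald test, 216 with no filter, 524 at a threshold of 0.1 and between 2 and 456 with a library left out, highest without tdT-negative replicate 1, and 225 without tdT-negative replicate 4. With the block 1998 passed, and 1418 with library totals, 1990 with DESeq2 size factors, 2504 with the DESeq2 Wald test, 2144 with limma voom, 234 and 3182 at thresholds of 0.01 and 0.1, and 1023, 347, 355 and 2535 without number 1, 2, 3 and 4. Of these, 50.7% were higher with TMM and 29.8% with library totals.

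Ccl3 and Ccl9 were lower under all alternatives, from -0.45 to -0.10 and from -0.40 to -0.20 with libraries left out. Ccl24 ran from -1.16 to -0.0019, the last with the group only and without tdT-negative replicate 3, where it had no direction to speak of. The signs of the others, none of which passed, did not hold. With the block and library totals, Ccl6 was at -0.056 and Ccl8 at -0.024. With 1 library left out, log2 fold changes ran from -0.11 to 0.37 for Ccl2, -0.24 to 0.061 for Ccl4, -0.027 to 0.16 for Ccl5, -0.21 to 0.20 for Ccl6 and -0.17 to 0.48 for Ccl8. With the block and without number 4 they were -0.067 for Ccl2, -0.067 for Ccl5, -0.20 for Ccl6, -0.026 for Ccl7, -0.18 for Ccl8 and -0.046 for Ccl12. The cause was not tested. Other CC chemokines that passed numbered 0 without the block, 2 with it or with library totals too, and 1 to 2 with a number left out, and receptors 0, 2, 3 and 0 to 3. Ccl24 is limited by its 3 to 54 counts a library, and did not enter the stricter filter.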
